A study of Oryza sativa Japonica Group with 6 samples.

Results

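NAC5 (LOC4349963), a NAC transcription factor gene, and some other numbered NAC genes of rice were followed in seedling roots deprived of nitrogen for 1 h. NAC5 was selected on its difference in intensity between −N and +N on these same arrays, so that difference is described here without a test. The other genes were taken by name, from a list drawn up with earlier results of these data known. Taken were those whose symbol or synonym is NAC1, NAC2, NAC3, NAC4, NAC6, NAC7, NAC8 or NAC10. This gave 11 probe sets of 6 genes, out of 57194 probe sets and 17905 genes that have a probe set of their own. They were NAC5 with 3 probe sets, NAC6 (LOC4325006) with 3, NAC7 (LOC4341201) with 2, and NAC2 (LOC4336052), NAC3 (LOC4342753) and NAC4 (LOC4327485) with 1 each. NAC2 also carries NAC4 among its synonyms. NAC8 (LOC4325120) was matched only by 2 probe sets that are tied to another gene as well, and these were not assigned to it. The names NAC1 and NAC10 matched no gene in the tables used here, and NAC010 (LOC4343630), which differs from NAC10 by its zero, was kept apart.

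The −N group was roots of TNG67, a japonica rice cultivar, from 10-day-old seedlings kept for 1 h in hydroponic solution without ammonium nitrate, and the +N group was roots of seedlings in the same solution with ammonium nitrate. Each group had 3 biological replicates, and the root RNA of each was read on its own GeneChip Rice Genome Array, which has a single colour. The sample labels have both groups moved to new solution, whereas the Methods describe a transfer for −N alone. One label of +N replicate 3 gives 0.5 h, and −N replicates 1 and 2 carry the word reanalysis in their titles. Nothing in the sources used here says whether the replicates were separate cultures, so p-values measure the spread between these arrays, which may be technical.

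NAC proteins are plant transcription factors named after NAM, ATAF and CUC, and they share a DNA-binding domain at the N-terminus followed by a variable region that acts on transcription. In rice, NAC5 and NAC6 belong to the stress-related branch of the family. Their transcripts are known to respond to drought, salt and abscisic acid, and the NAC5 protein is known to bind the promoter of LEA3, a late embryogenesis abundant gene. NAC4 is known from cell death during the hypersensitive response, NAC2 from shoot branching, and NAC7 gives its name to the subgroup that in Arabidopsis holds the VND regulators of xylem vessel formation.

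NAC5 was the member that lay furthest from its +N level after 1 h of −N. On its brightest probe set, the intensities were 200.4, 354 and 278 in −N, against 1830, 2451 and 1937 in +N. Every −N array was therefore far below every +N array, and the highest −N value was well under the lowest +N value. The mean was 277 ± 76.7 in −N and 2073 ± 332 in +N (SD, n = 3 each), a log2 fold change of −2.93 or a 7.61-fold lower intensity by geometric means. The 3 differences between arrays of equal replicate number were −3.19, −2.79 and −2.80 on the log2 scale, with an SD of 0.23, so all replicate numbers showed a difference of similar size. Of the 57194 probe sets on the arrays, 2 had a log2 fold change further below 0.

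The other probe sets of NAC5 lay lower in −N as well, by less. The second brightest, whose identifier ends in the x mark for probes that may match other transcripts, had intensities of 39.2, 52.5 and 55.4 in −N and 69.2, 144 and 165 in +N. Its −N arrays were all below its +N arrays, with a log2 fold change of −1.28 and differences of −0.82, −1.45 and −1.57 by replicate number. The dimmest had intensities of 13.0, 13.6 and 10.4 in −N and 19.4, 45.4 and 26.6 in +N. Here too the groups did not overlap, and the log2 fold change was −1.23, with differences of −0.58, −1.74 and −1.36. This last probe set was dim in −N, and on 1 of its arrays only 20.7% of all probe sets had a lower value. The 3 probe sets thus gave the same direction on every replicate number and sizes between 2.34-fold and 7.61-fold lower in −N. The identifiers of the dimmer ones are the same apart from the x mark, so these may not be independent readings. Replicate number 1 had the largest difference on the brightest probe set and the smallest on both others.

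**Figure D1:**
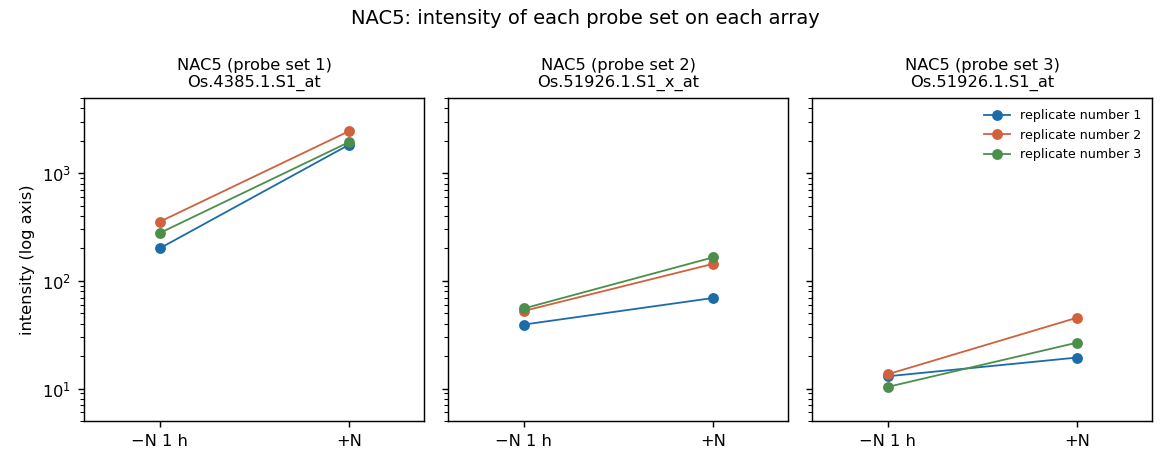
Intensity of the 3 NAC5 probe sets (log axis) on the −N and +N arrays, with a line between arrays of equal replicate number. All 9 lines run upward to +N, and on the brightest probe set the −N arrays lie between 200.4 and 354 and the +N arrays between 1830 and 2451.

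Among the other members, 0 of 8 probe sets passed limma's moderated test in either direction at an adjusted p under 0.05 over all probe sets, and 1 (NAC3) had an unadjusted p under 0.05. Over all 57194 probe sets, 4 (0.00699%) passed lower and 0 (0.0%) passed higher in −N in limma, while at an unadjusted p under 0.05 there were 1005 (1.76%) lower and 740 (1.29%) higher. Blocking on replicate number in limma, 225 (0.393%) passed lower and 190 (0.332%) passed higher, and of the 8 probe sets 0 passed, with 1 lower and 1 higher at an unadjusted p under 0.05 (background 5.71% and 7.07%). Arrays of equal number also held identical values, to 4 decimals, in 1866 to 2181 probe sets, against 0 to 2 for arrays of unequal number. Whether such arrays were processed together by the authors is not given in the sources used here, and its part in the pairing was not tested.

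NAC3, a relative of NAC5 in the stress-related branch, was the only other member whose groups did not overlap. Its intensities were 271, 489.6 and 564 in −N, against 615, 1257 and 649 in +N. The highest −N value came close to the lowest +N value, so the separation was narrow. Its log2 fold change was −0.91 (SE 0.37, 95% interval −1.77 to −0.06), or 1.89-fold lower, with an unadjusted p = 0.0390 and an adjusted p = 1 in limma. Blocking on replicate number gave an SE of 0.22 and an adjusted p = 0.136 in limma. The differences by replicate number were −1.18, −1.36 and −0.20, so 2 numbers differed by more than 2-fold and replicate number 3 by little. Without −N replicate 1 the log2 fold change was −0.60, and without +N replicate 2 it was −0.58. Of all probe sets, 3.36% had every −N array below every +N array, against 1 of these 8, and 2.53% had every −N array above every +N array, against 0 of these 8. Of all probe sets, 0.684% were at least 2-fold lower in −N by geometric means, which held for 0 of these 8 and, by their choice, for the 3 of NAC5. Lower values in all 3 replicate numbers were found for 15.0% of all probe sets and for 1 of these 8. In each replicate number the difference of NAC3 was smaller than that of the brightest NAC5 probe set, which was chosen on this contrast. Against the other NAC5 probe sets, at −0.82 and −0.58 in replicate number 1, it was larger there and smaller in replicate numbers 2 and 3.

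NAC6, also known as SNAC2, gave no call on any of its probe sets. On the brightest the intensities were 475, 575 and 567 in −N and 564, 408 and 437 in +N. The groups overlapped, since +N replicate 1 lay within the range of the −N arrays. The log2 fold change was 0.21 (SE 0.20, 95% interval −0.26 to 0.67, adjusted p = 1 in limma), and the replicate numbers went −0.25, 0.49 and 0.37. The log2 fold change was 0.35 without +N replicate 1 and 0.11 without +N replicate 2. The interval over all arrays leaves out a 2-fold difference in either direction. The second probe set had values from 13.3 to 19.9 in −N and from 9.18 to 21.9 in +N, and the dimmest had values from 7.91 to 9.70 in −N and from 7.91 to 10.5 in +N. Both were near the low end of the arrays, and their log2 fold changes were 0.07 and −0.08. The dimmest of them had the same value, 7.91, on both arrays of replicate number 2. Only 1 of the 3 NAC6 probe sets was bright.

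NAC4 had the largest positive log2 fold change among the members, 0.69, with a wide spread. Its intensities were 115, 167 and 297 in −N and 73.9, 191 and 96.9 in +N. The +N value of replicate 2 lay above 2 of the 3 −N values, so the groups overlapped. The SE was 0.44 and the 95% interval ran from −0.33 to 1.70 (adjusted p = 1 in limma, and 0.399 when blocked on replicate number). The differences were 0.64, −0.19 and 1.61 by replicate number, and replicate number 3, at 3.06-fold, carried most of the mean. Without −N replicate 3 the log2 fold change was 0.32, without +N replicate 1 it was 0.39, and without +N replicate 2 it was 1.08.

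NAC2 and NAC7 had small differences, with intervals that span 0 in the fit without the block. NAC2 had 174, 164 and 215 in −N and 144, 158 and 209.7 in +N. Replicate number 3 was high in both groups, and the differences of 0.27, 0.05 and 0.04 were all slightly above 0. Its log2 fold change was 0.12 (SE 0.22, 95% interval −0.38 to 0.62, adjusted p = 1 in limma), and with 1 array left out it ran from 0.0038 (without −N replicate 3) to 0.28 (without +N replicate 3). NAC7 had 41.2, 57.4 and 44.2 in −N and 33.8, 62.7 and 40.8 in +N on its brighter probe set, whose identifier ends in the s mark for probes shared by several transcripts, and replicate number 2 was the highest in both groups. Its log2 fold change was 0.09 (SE 0.27, 95% interval −0.53 to 0.72, adjusted p = 1 in limma). The other NAC7 probe set was dim, with 10.8, 14.0 and 10.2 in −N and 8.01, 10.9 and 9.69 in +N. The log2 fold change here was 0.29, with SE 0.21, a 95% interval of −0.21 to 0.78 and an adjusted p = 1 in limma. Blocking on replicate number gave a 95% interval of 0.0049 to 0.57, which leaves out 0. With the block the unadjusted p was 0.0470 and the adjusted p = 0.382 in limma. The log2 fold change was 0.15 without −N replicate 2 and 0.17 without +N replicate 1. NAC2 and this dim NAC7 probe set were the 2 of 8 that were higher in all 3 replicate numbers, against 16.5% of all probe sets.

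**Figure D2:**
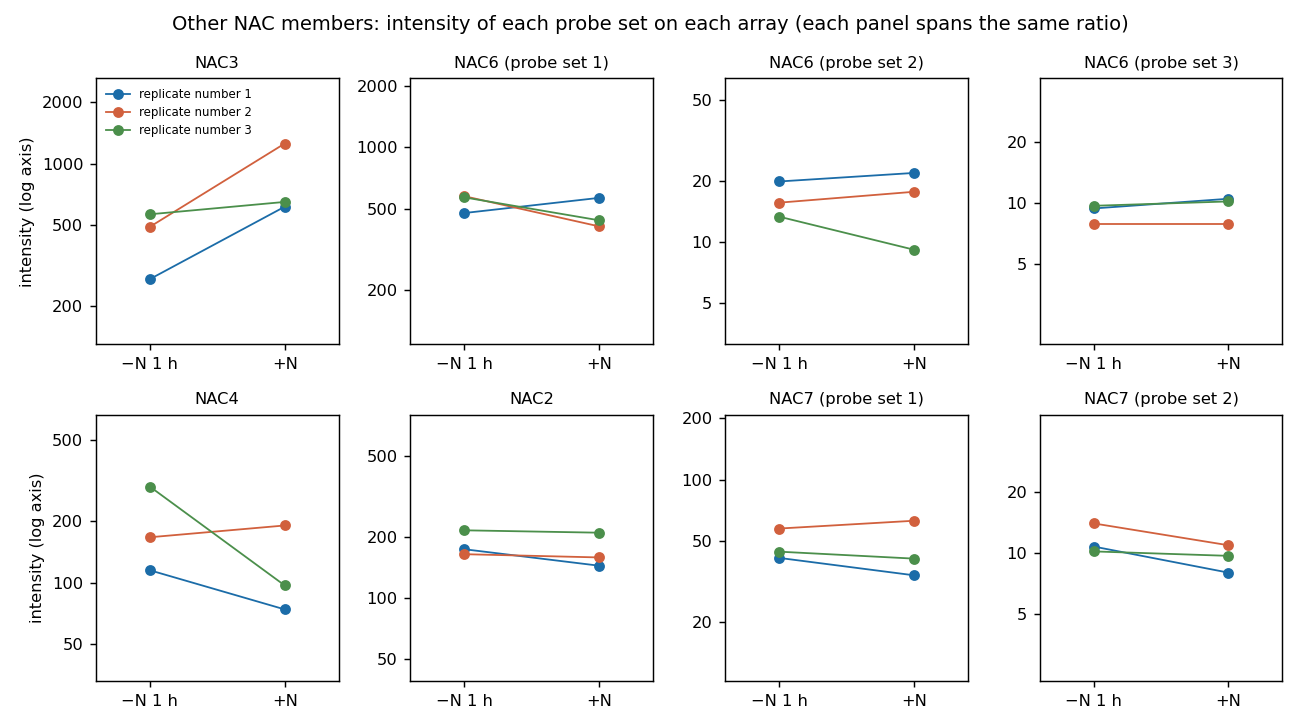
Intensity of the 8 probe sets of NAC3, NAC6, NAC4, NAC2 and NAC7 (log axes that each span the same ratio) on the −N and +N arrays, with a line between arrays of equal replicate number. Only for NAC3 do the −N arrays, 271 to 564, lie wholly below the +N arrays, 615 to 1257.

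The wider NAC family, here only the genes found by symbol or synonym, added 2 measured genes, NAC45 (ONAC045, LOC4349650) and NAC010. NAC45 is known from drought and salt tolerance in rice. This list is not the whole NAC family of rice. NAC90, which the paper lists among the genes induced by −N, is not in it under that name. NAC077 (LOC4351370) had no probe set tied to it. NAC45 had intensities of 97.2, 119.6 and 141 in −N and 256, 162 and 111 in +N. The groups overlapped, and the differences of −1.40, −0.44 and 0.35 by replicate number changed sign. The difference averaged −0.50 on the log2 scale (SE 0.32, 95% interval −1.23 to 0.24, adjusted p = 1 in limma), with −0.18 without +N replicate 1 and −0.79 without +N replicate 3. NAC010 was dim, from 7.96 to 13.8 in −N and from 9.31 to 16.4 in +N, and its mean log2 difference was −0.10 (SE 0.30, with an adjusted p = 1 in limma). Of the 10 family probe sets outside NAC5, 8 of them the member probe sets counted above, 0 passed in limma with or without the block. Over all probe sets 0.00699% passed lower and 0.0% higher without the block, and 0.393% and 0.332% with it. In limma without the block 1 of the 10 (NAC3) had an unadjusted p under 0.05, against 1.76% lower and 1.29% higher over all probe sets.

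As a list, the 10 family probe sets outside NAC5 had 4 negative and 6 positive log2 fold changes with a median of 0.08, and all 57194 probe sets had 50.7% below 0. With the 3 NAC5 probe sets, which were selected for being lower, the family had 7 negative and 6 positive values and a median of −0.08. The 8 member probe sets outside NAC5 had 2 negative and 6 positive values with a median of 0.11. The genes named as stress-related (NAC3, NAC4, NAC5, NAC6 and NAC45, with NAC2 through its synonym NAC4) had 7 probe sets outside NAC5, with 3 negative and 4 positive values and a median of 0.07. No measured gene carried a name of the secondary wall, boundary or membrane-bound kind. NAC5 therefore stood at one end of the range of the NAC genes found by name, which is where it was chosen to be.

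**Figure D3:**
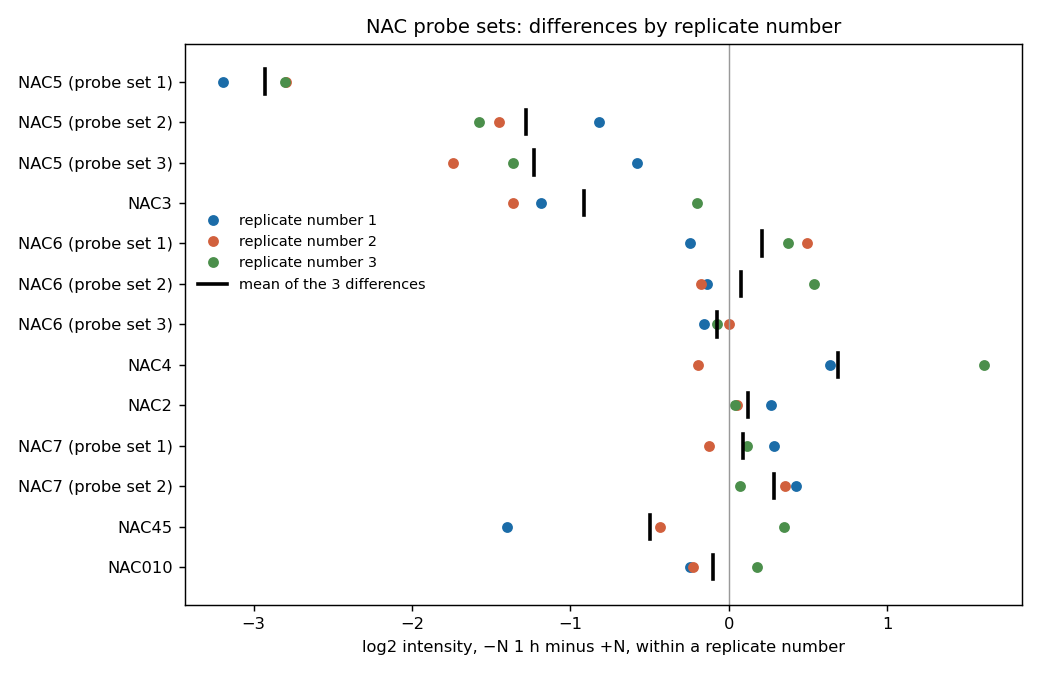
Difference in log2 intensity, −N minus +N, within each replicate number (points) and the mean of the 3 (bars) for the 13 NAC probe sets. The NAC5 means lie between −2.93 and −1.23, that of NAC3 at −0.91, and the others between −0.50 and 0.69.

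**Figure D4:**
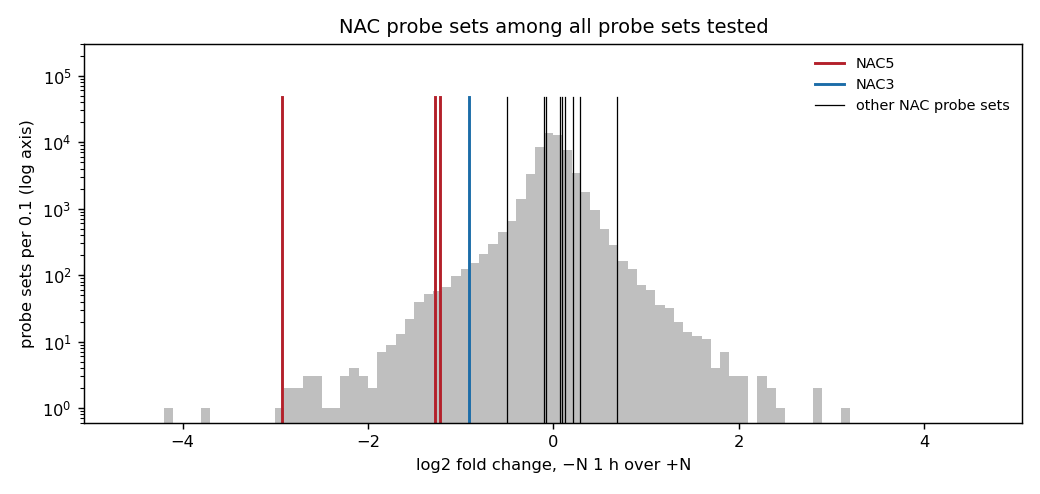
Log2 fold changes of −N over +N for all 57194 probe sets (grey, number per bin on a log axis) with the 3 NAC5 probe sets, NAC3 and the other NAC probe sets as vertical lines. The brightest NAC5 probe set, at −2.93, has 2 probe sets further to the left.

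The genes whose pattern over the 6 arrays was most like that of the brightest NAC5 probe set were sought among 141 probe sets of named genes with an SD of log2 values of at least 0.82 over the arrays, a limit set from the SD of NAC5, 1.63. The measure was Pearson's r of log2 intensities over the 6 arrays, given as a description. The arrays form 2 groups for NAC5, so a gene that is lower on all −N arrays, as were 27 of the 141, tends to a high r. STAR2 (LOC4337635), a subunit of an ABC transporter known from aluminium tolerance, was the most similar, with r = 0.993 and differences of −2.20, −2.24 and −1.72 by replicate number. NIGT1 (LOC4329184), a nitrate-inducible repressor, followed at r = 0.986 with −2.00, −1.90 and −2.02. Next was the kinase gene CIPK14 (LOC4351307) at r = 0.978. The qRT-PCR primers of the paper could not tell it from the very similar CIPK15, and whether these array probes can was not tested. FNR (LOC4334338), a ferredoxin-NADP reductase gene, had r = 0.967, and STLP3 (LOC4336343) r = 0.966. Each of these 5 genes was lower in −N on every replicate number, against 15.0% of all probe sets. Their choice by likeness to NAC5 made this likely in advance. In each replicate number the difference of the brightest NAC5 probe set, chosen on this contrast, was larger than theirs. The other NAC5 probe sets, with log2 fold changes of −1.28 and −1.23, differed less than any of the 5, of which FNR was smallest at −1.48.

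By the same measure the other NAC probe sets had lower values. The further NAC5 probe sets had r = 0.881 and 0.874, NAC3 had r = 0.799 and NAC45 r = 0.553. The remaining family probe sets lay between −0.50 (the bright NAC6 probe set) and 0.10 (the dimmest one).

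**Figure D5:**
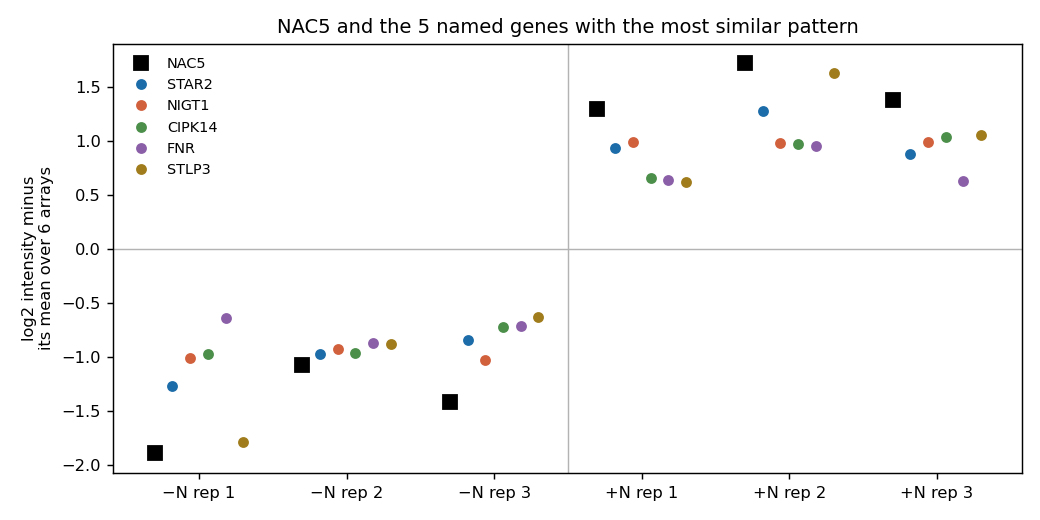
Log2 intensity minus its mean over the 6 arrays for NAC5 (squares) and for STAR2, NIGT1, CIPK14, FNR and STLP3 (points) on each −N and +N array. All 6 genes lie below 0 on the −N arrays and above 0 on the +N arrays. Their log2 fold changes run from −2.93 (the brightest NAC5 probe set, the one shown) to −1.48 (FNR).

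The measured genes nearest to NAC5 in the annotation order had smaller differences than its brightest probe set, which was chosen on this contrast. None of them passed the test, and over all 57194 probe sets only 4 (0.00699%) passed lower and 0 (0.0%) higher. The gene just before NAC5 was the aspartic protease gene ASP1 (LOC4349962). Its brighter probe set had a mean of 16.8 ± 9.03 in −N and 24.9 ± 10.3 in +N (SD, n = 3 each). This is −0.61 on the log2 scale (SE 0.45, and an adjusted p = 1 in limma). Its other probe set, at 5.99 ± 0.61 in −N and 5.38 ± 0.56 in +N (SD, n = 3 each), was 0.16 on the log2 scale (SE 0.19, and an adjusted p = 1 in limma). Both ASP1 probe sets were dim, with means below the lowest array median, 33.3, so they say little of this gene. The nearest measured gene after NAC5, LOC4349966, lies 5 genes away. It had 3035 ± 575 in −N and 3508 ± 472 in +N (SD, n = 3 each), which is −0.22 on the log2 scale (SE 0.21, and an adjusted p = 1 in limma).

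The root label was checked with genes fixed as markers. Of 8 root markers 6 had a probe set, and the silicon transporter gene LSI1 was bright on every array, between 11842 and 14171 in −N and between 13192 and 16384 in +N. SCR1 was dim, from 14.3 to 28.2 in −N and from 13.7 to 23.2 in +N. The log2 fold changes of the 6 ran from −0.50 (IRO2, lower in every replicate number) to 0.20 (SHR1), and the groups overlapped for each. Of 6 markers of green shoot tissue 3 had a probe set. Their lowest value was 47.8, of the fructose-bisphosphatase gene FBP1. The highest was 14903, of the light-harvesting protein gene CAB2R in +N replicate 1, where LSI1 had 13192. The summed intensity of these green markers, most of it from CAB2R, was 6152 to 10640 in −N and 12100 to 18538 in +N. This sum was thus lower in −N, as was NAC5. The sum of the root markers, most of it from LSI1, overlapped at 17359 to 22125 in −N and 18500 to 24412 in +N. RBCS, the small subunit of Rubisco, had 846, 935 and 587 in −N and 3407, 1229 and 1497 in +N. CAB2R had 5202, 9656 and 9510 in −N and 14903, 10785 and 13017 in +N, so both were lower on all −N arrays. Neither passed in limma (adjusted p = 1 for both, and 0.110 for RBCS and 0.270 for CAB2R when blocked on replicate number). The part of green tissue in the NAC values was not tested, and in bulk roots fewer cells of a type and less RNA per cell cannot be told apart.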

How the data were processed

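Total RNA of 6 root samples (3 −N, 3 +N) was measured on single-colour arrays. The authors deposited 1 intensity for every probe set on each array, on a linear scale. GCOS and RMA are named in the submitters' processing notes, without version or order. Array medians ran from 33.3 to 35.2 and upper quartiles from 131 to 180, and the precision is limited by 3 arrays per group. Intensities were taken to log2 without a pseudocount, 187 control probe sets were left out, and the remaining 57194 entered 1 model of −N over +N in limma 3.58.1 (lmFit, eBayes; R 4.3.3). Its two-sided p-values were adjusted by Benjamini-Hochberg over all of them, and 0.05 was the threshold. The SD of the 3 linear intensities of a group follows each ±, and SEs and 95% intervals are limma's on the log2 scale. Probe sets were named through the platform annotation and a RefSeq gene table (assembly ASM3414082v1, names and gene order only). Of the 57194, 22436 had 1 gene, 95 had several and 34663 had none here.

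The members and lists were chosen with earlier results of these data known. Named are all member and family probe sets and the 5 named genes most like NAC5. Planned family descriptions by protein name, protein identities and promoter motifs were not run, since the tables used here hold no descriptions or sequences. The test was also tried on simulated arrays, but the outcome is not given here and no statement here rests on it.

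Replicate numbers are shared by both groups. Deviations from the group means of arrays with equal numbers correlated at 0.785, 0.664 and 0.653, and of unequal numbers between −0.547 and 0.0846. All 3 were over 0.1, so the numbers were taken to pair the arrays, which comes from the data alone. The main fit did not use this pairing. SEs, intervals and p-values given without mention of the block are from that fit. For each NAC probe set outside NAC5 its SE was larger than with the block. The alternatives were the replicate number as a block, quantile normalization, median centring, a pseudocount of 16, a filter on dim probe sets (mean log2 of at least 6), 1 or averaged probe sets per gene, and leaving out each array.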

Additional observations from a re-analysis of the deposited data

How the results depend on the processing

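No NAC call changed under the settings tried. Outside NAC5, 0 family probe sets passed in limma in the main fit and under all 13 alternatives, the replicate block included, with a lowest adjusted p of 0.136 (NAC3 with the replicate block). In settings that kept all arrays, 59 of 59 values of these probe sets kept their direction, but many of the 59 could not change. The replicate block leaves the log2 fold change as it is. The dim filter and the choice of the brightest probe set only keep or drop a probe set. Averaging changes nothing for a gene with 1 probe set. With an array left out, the log2 fold change of NAC010 ran from −0.28 to 0.16 (above 0 without −N replicate 2 or +N replicate 1), the bright NAC7 probe set from −0.10 to 0.34 (below 0 without the same arrays), the second NAC6 probe set from −0.29 to 0.33 (below 0 without −N replicate 1 or +N replicate 3) and its dimmest probe set from −0.21 to 0.015 (above 0 without −N replicate 2). NAC3 ran from −1.13 to −0.58 and the brightest NAC5 probe set from −3.12 to −2.71. Averaging the NAC5 probe sets gave −1.81, and a pseudocount of 16 moved its dimmest probe set to −0.68. Over all probe sets, where 4 were lower and 0 higher, limma called 10 lower after quantile normalization, 2 after median centring, 14 lower and 3 higher with the filter on dim probe sets, 15 and 4 with the brightest probe set per gene, 12 and 4 with probe sets averaged, and 225 and 190 with the replicate block. Leaving out an array gave 0 to 1 lower and 0 to 1 higher, with 1284 to 2708 at an unadjusted p under 0.05. Except for the replicate block, the fits had no pairing. Dim probe sets limit what can be said of NAC6 beyond its bright probe set, of NAC7 and of NAC010.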
